A study of Mus musculus with 4 samples.

Results

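The 10 genes examined belong to the actin cytoskeleton and were measured in CD8 T cells sorted from mouse spleen: Actb, Actg1, Pfn1, Cfl1, Tmsb4x, Tmsb10, Coro1a, Arpc1b, Arpc2 and Capzb. The genes were picked with earlier results of these data known, so their values here describe them and are no independent support for the choice. A probe set counted for a gene when the platform annotation mapped it to that gene alone, and the main probe set of a gene was chosen by the highest mean over the 4 arrays. By this rule 9 of the 10 genes were measured, by 20 probe sets, among 12393 named genes in all. Both probe sets that carry the name Arpc1b also carry another gene's name, so Arpc1b has no value here. The mean levels of the 9 main probe sets lay between 9.505 and 13.06 on the log2 scale, above the median of 6.01 over all tested probe sets. Because the mean level chose the main probe sets, it is given as a description.

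Female C57BL/6 mice aged 8 to 12 weeks had received either 2,3,7,8-tetrachlorodibenzo-p-dioxin (TCDD), a dioxin that binds the aryl hydrocarbon receptor, or the solvent DMSO, both intraperitoneally. The TCDD dose was 10 µg/kg, and spleens were taken after 24 h. Cell suspensions of the 4 mice of a group were pooled, and FACS yielded CD8 T cells of more than 99% purity. Their RNA was isolated with TRIzol and amplified before labelling. Each treatment has 2 arrays, whose titles are numbered 1 and 2. The labels do not say what the number stands for or whether a group's arrays hold RNA of separate pools, so every p-value reflects array-to-array spread that may be technical. The study asked what TCDD changes in CD8 T cells. Each gene was compared between TCDD and DMSO and between the arrays numbered 2 and those numbered 1.

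Actin exists as monomers and as filaments that grow and shrink at their ends. Profilin and the beta-thymosins bind monomers, the Arp2/3 complex starts branches, capping protein stops growth at the fast-growing end, and cofilin and coronin take part in turnover. In T cells this machinery shapes the contact with a target cell and drives crawling through lymphoid tissue. Free actin monomers also hold back MRTF, a cofactor of the transcription factor SRF, and SRF binds the CArG box that stands in front of many actin genes.

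Promoter sequences are shown as background to these genes, with GCGTG as the core of letters that the TCDD receptor binds and the CArG box as that of SRF. No motif was tested against either comparison. RefSeq promoter windows of GRCm38.p6 were found for 9 of the 10 genes, Actb being the gene with none, in 12 windows. The 250 bases before each annotated start were searched on both strands for the CArG box and for GCGTG, which reads CACGC on the other strand. A CArG box was found in 1 member, Actg1, at positions −90 to −81 from its start, and in 1.624% of all 27025 genes with a window. GCGTG was found in 6 of the 9 members (Pfn1, Cfl1, Tmsb4x, Tmsb10, Arpc1b and Arpc2) and in 30.85% of all genes. The 12 windows of the members had a median GC content of 61.2%, from 52 to 79.2%, against a median of 52.4% over all 32851 windows, and GCGTG holds mostly G and C. Shown are Actg1 for its CArG box (chr11:120348496-120348745, minus strand), Arpc2 for its 4 GCGTG matches (chr1:74236267-74236516, plus strand) and Tmsb4x as a gene with 1 GCGTG match (chrX:167209219-167209468, minus strand). Capitals mark the matches, which do not overlap each other, and each run is 250 bases written 5′ to 3′ towards the start. A match is a run of letters and was not tested as a binding site.
Actg1: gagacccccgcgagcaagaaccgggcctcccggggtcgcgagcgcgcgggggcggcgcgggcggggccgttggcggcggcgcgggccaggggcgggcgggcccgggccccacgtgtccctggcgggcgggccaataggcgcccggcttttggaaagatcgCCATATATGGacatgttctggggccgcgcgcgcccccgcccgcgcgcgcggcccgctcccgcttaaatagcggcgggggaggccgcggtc
Arpc2: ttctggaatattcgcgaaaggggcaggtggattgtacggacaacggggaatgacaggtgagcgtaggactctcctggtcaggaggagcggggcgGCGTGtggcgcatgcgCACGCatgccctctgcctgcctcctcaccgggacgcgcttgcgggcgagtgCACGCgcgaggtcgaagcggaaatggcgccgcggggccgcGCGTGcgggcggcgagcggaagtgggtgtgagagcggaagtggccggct
Tmsb4x: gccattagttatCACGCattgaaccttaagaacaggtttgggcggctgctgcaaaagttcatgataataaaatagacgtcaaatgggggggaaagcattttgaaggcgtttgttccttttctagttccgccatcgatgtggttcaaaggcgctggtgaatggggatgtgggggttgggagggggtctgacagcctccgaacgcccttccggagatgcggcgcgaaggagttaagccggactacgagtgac

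After TCDD, 8 of the 9 main probe sets measured lower than after DMSO by their group means, with a median difference of −0.305 on the log2 scale over the 9 and of 0.01 over all genes. Coro1a was the exception. None passed the limma test, in which 0 of 22626 probe sets (0%) were called and every member had an adjusted p of 0.997. At an unadjusted p under 0.05 there were 439 probe sets over the whole array (1.94%) and 0 among the 9. Of all genes, 45.6% had a difference below 0, and among the 645 genes at or above the lowest level of the members 48.8% did. In this bulk measurement fewer cells of a type and less RNA per cell cannot be told apart. Leaving out DMSO replicate 2 brought the median of the 9 to −0.10 and leaving out DMSO replicate 1 brought it to −0.51. With 2 arrays against 2, an exact two-sided permutation test cannot give a p below 0.333, so none was run.

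Within the arrays numbered 1 the median difference of the 9 genes was −0.16, with 7 of 9 lower after TCDD. Within the arrays numbered 2 it was −0.46, with 8 of 9 lower. The medians over all genes were −0.03 and 0.05. In both numbers alike, 6 of the 9 were lower after TCDD, against 20.2% of all genes and 23.1% of the 645 genes at or above the members' lowest level. The TCDD pair lay entirely below the DMSO pair for 4 members (Actg1, Cfl1, Tmsb4x and Tmsb10), against 12.0% of all genes, and above for 0, against 12.9%. DMSO replicate 2 alone held the highest of the 4 values for 6 of the 9, against 24.4% of all genes.

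**Figure D1:**
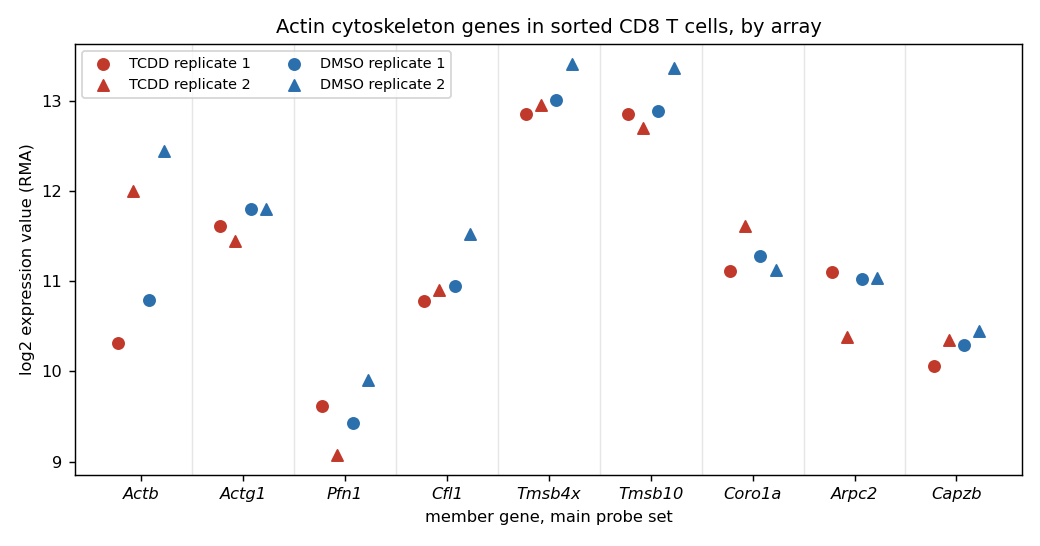
The log2 expression value of each member gene's main probe set is plotted for the 4 arrays, with TCDD in red, DMSO in blue, circles for number 1 and triangles for number 2. For Actb both triangles lie above both circles, at 12.01 and 12.45 against 10.32 and 10.79, and for Tmsb10 the DMSO array numbered 2 stands above the other 3 at 13.37.

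The cytoplasmic actin gene Actb, which encodes beta-actin, differed most between the numbers. Its main probe set measured 10.32 and 12.01 in TCDD replicates 1 and 2 and 10.79 and 12.45 in DMSO replicates 1 and 2. Both arrays numbered 2 lay above both numbered 1, by 1.69 within TCDD and 1.66 within DMSO. The difference of 1.675 corresponds to a signal 3.19-fold higher in the arrays numbered 2, with 95% limits of 2.11 and 4.83. In limma its p was 0.000936 before adjustment and 0.319 after it, above the threshold of 0.05, and the adjusted p ran from 0.135 to 0.997 over the alternatives. Among all genes the main probe set's difference was the 6th largest towards number 2 and the 32nd in size in either direction. Averaged over both Actb probe sets the difference was 0.6075. By treatment Actb differed by −0.455 with limits of −2.48 and 1.57, and the groups overlapped. The fit has no term for the number, so these limits include the difference between the numbers. It was lower after TCDD within both numbers, by 0.47 in size in number 1 and 0.44 in number 2, and the fitted difference turned to 0.39 without TCDD replicate 1 and to 0.375 without DMSO replicate 2, each of which leaves the numbers unbalanced between the treatments.

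The other Actb probe set went the opposite way between the numbers. It measured 8.88 and 8.27 in TCDD replicates 1 and 2 and 9.17 and 8.86 in DMSO replicates 1 and 2, so both arrays numbered 2 lay below both numbered 1. That difference was −0.46 with limits of −1.07 and 0.15 (adjusted p = 0.740). The main probe set therefore exceeded the other by 1.44 and 1.62 in the TCDD and DMSO arrays numbered 1 and by 3.74 and 3.59 in those numbered 2. By treatment this probe set differed by −0.44, close to the −0.455 of the main one, with limits of −1.08 and 0.20.

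The array also carries Affymetrix control probe sets for beta-actin, which read the 3′ end, the middle and the 5′ end of the transcript. They are no members and were not in the fit. The 3′ control measured 11.22 and 12.74 in TCDD replicates 1 and 2 and 11.62 and 13.07 in DMSO replicates 1 and 2. All 3 controls were higher in both arrays numbered 2, by 1.485 at the 3′ end, 1.915 in the middle and 1.705 at the 5′ end. By treatment they differed by −0.365, −0.515 and −0.235, lower after TCDD within both numbers. Of the 5 beta-actin probe sets in all, 4 were thus higher and 1 was lower in number 2.

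Coverage along the transcript, a sign of RNA and amplification quality, moved with the number. For beta-actin the 3′ control exceeded the 5′ control by 3.61 and 3.34 in TCDD replicates 1 and 2 and by 3.69 and 3.52 in DMSO replicates 1 and 2. For the glycolytic gene Gapdh the same measure was 5.35 and 4.56 in the TCDD arrays and 5.27 and 4.30 in the DMSO arrays. Both transcripts had less 3′ excess in number 2, by 0.22 in size for beta-actin and 0.88 for Gapdh. The Gapdh 3′ control itself differed by −0.02 between the numbers, from 0.46 within TCDD and −0.5 within DMSO. The Gapdh middle and 5′ controls differed by 0.6 and 0.86. The part of coverage in the Actb difference was not tested. By treatment the 3′ excess differed by −0.13 for beta-actin and 0.17 for Gapdh.

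**Figure D2:**
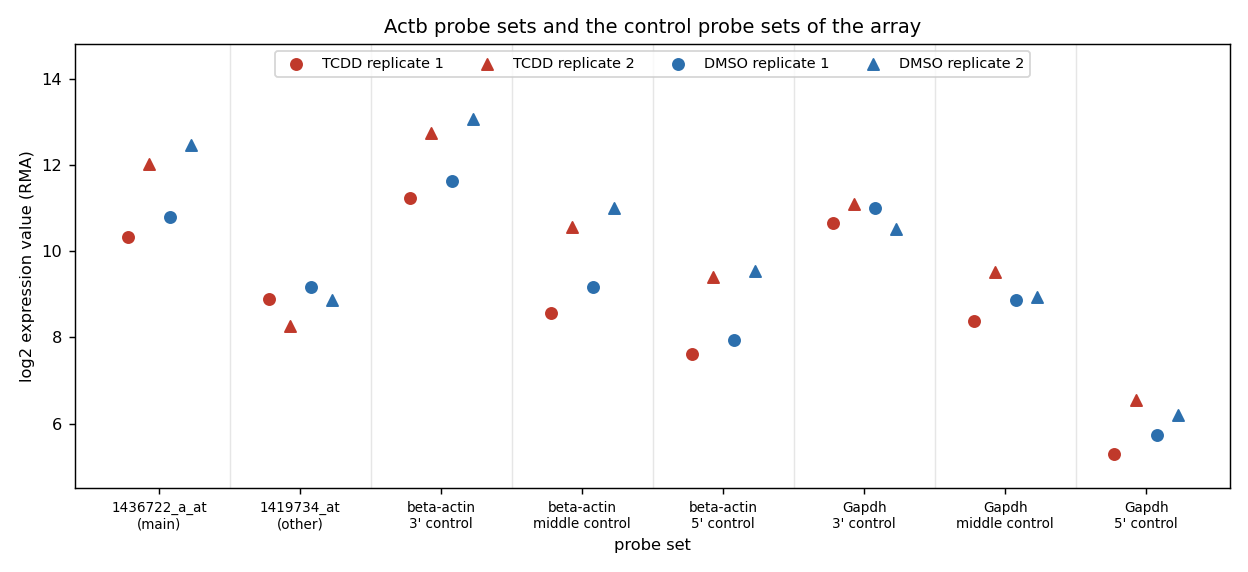
Log2 expression values of the 2 Actb probe sets and of the control probe sets for beta-actin and Gapdh are plotted by array, with TCDD in red, DMSO in blue, circles for number 1 and triangles for number 2. The triangles lie above the circles for the main Actb probe set and the 3 beta-actin controls, and below them for the other Actb probe set.

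Actg1, which encodes gamma-actin, the near-identical partner of beta-actin in non-muscle cells, has 1 probe set. It measured 11.62 and 11.45 in TCDD replicates 1 and 2 and 11.81 in both DMSO arrays. The difference between the numbers was −0.085 with limits of −0.50 and 0.33, and the numbers overlapped. After TCDD it was lower in both arrays, by −0.275 with limits of −0.57 and 0.02, and as arrays were left out this ran from −0.36 to −0.19. The name of this probe set ends in _s_at, by which Affymetrix marks probes shared by several transcripts, so signal of other actin transcripts cannot be told apart from Actg1.

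Among the muscle actins and smooth muscle genes, which T cells are not known for, 7 of 7 were measured and 2 had a mean above the median level. Acta2, the smooth muscle actin, measured 6.58 and 7.01 in TCDD replicates 1 and 2 and 6.43 and 6.64 in DMSO replicates 1 and 2. It differed by 0.32 between the numbers and 0.26 by treatment. Tagln, which encodes the actin-binding protein transgelin, differed by 0.245 and −0.155. Of the 7 genes, 0 passed limma in either comparison.

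Of the genes for monomer-binding proteins, the beta-thymosin gene Tmsb4x measured 12.86 and 12.96 in TCDD replicates 1 and 2 and 13.01 and 13.42 in DMSO replicates 1 and 2. Both TCDD values lay below both DMSO values, and the difference was −0.305 with limits of −0.75 and 0.14. It was −0.10 without DMSO replicate 2. Between the numbers it differed by 0.255, with overlapping groups.

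Tmsb10, the second beta-thymosin gene, measured 12.86 and 12.70 after TCDD and 12.89 and 13.37 after DMSO. Its TCDD arrays were again both lower, by −0.35 with limits of −0.85 and 0.15, but within number 1 the difference was only −0.03 and within number 2 it was −0.67. A further probe set above the median level had the same order in number 2, at 8.33 after TCDD and 9.73 after DMSO, and nearly equal values of 9.03 and 9.01 in number 1. Its remaining 3 probe sets had means between 4.15 and 4.52, below the median level, and treatment differences between −0.145 and 0.105. The names of the higher pair end in _s_at and _x_at, which mark shared or possibly cross-hybridising probes. Without such probe sets the gene is represented by one at the low end, whose treatment difference was 0.105.

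Pfn1, which encodes profilin 1, the protein that hands monomers to growing ends, did not keep one direction. It measured 9.62 and 9.07 in TCDD replicates 1 and 2 and 9.43 and 9.90 in DMSO replicates 1 and 2. TCDD was higher by 0.19 in number 1 and lower by 0.83 in size in number 2, so the mean difference of −0.32, with limits of −0.99 and 0.35, rests on the arrays numbered 2. Without TCDD replicate 2 it was −0.045, and without DMSO replicate 2 it was −0.085. Between the numbers it differed by −0.04.

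Cfl1, which encodes cofilin 1, the filament-severing protein, measured 10.78 and 10.91 after TCDD and 10.95 and 11.53 after DMSO. The TCDD pair was the lower one, with a difference of −0.395 and limits of −0.96 and 0.17. It was −0.17 in number 1 and −0.62 in number 2. The main probe set ends in _x_at. The other Cfl1 probe set, at a mean of 5.30 and so below the median level, measured 5.0 and 5.34 after TCDD and 5.26 and 5.59 after DMSO, a difference of −0.255 with overlapping groups. Between the numbers Cfl1 was higher in number 2, by 0.355 and 0.335 for the 2 probe sets, and both arrays numbered 2 exceeded both numbered 1 only for the second.

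Coro1a, which encodes coronin 1A, the main coronin of leukocytes, was the only member above 0 by treatment. It measured 11.12 and 11.62 in TCDD replicates 1 and 2 and 11.28 and 11.13 in DMSO replicates 1 and 2. TCDD was lower by 0.16 in size in number 1 and higher by 0.49 in number 2, a mean difference of 0.165 with limits of −0.35 and 0.68. Its second probe set above the median level repeated this order, at 10.89 and 11.53 after TCDD and 11.28 and 11.00 after DMSO, and differed by 0.07. The remaining one, low with a mean of 5.76, differed by 0.225 by treatment and by 0.465 between the numbers, with both arrays numbered 2 above both numbered 1. The main Coro1a probe set differed by 0.175 between the numbers, with overlapping groups.

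Arpc2, which encodes a core subunit of the Arp2/3 complex, was set apart by 1 array. It measured 11.10, 11.03 and 11.04 in TCDD replicate 1 and the DMSO replicates and 10.38 in TCDD replicate 2. The treatment difference of −0.295, with limits of −0.96 and 0.37, turned to 0.065 without that array. The difference between the numbers of −0.355 fell to a size of 0.025 without it (−0.025).

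Capzb, which encodes the beta subunit of capping protein, has 4 probe sets. The main one measured 10.06 and 10.35 after TCDD and 10.29 and 10.45 after DMSO. By treatment it differed by −0.165, with limits from −0.55 to 0.22. Both arrays numbered 2 lay above both numbered 1, with a difference of 0.225 and limits of −0.09 and 0.54. A second probe set above the median level differed by 0.015 by treatment and 0.145 between the numbers, and 2 low ones by −0.09 and 0.06 by treatment.

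Between the numbers, 6 of the 9 main probe sets were higher and 3 lower in number 2, with a median of 0.175 against 0.035 over all genes. Both arrays numbered 2 lay above both numbered 1 for 2 members (Actb and Capzb), against 22.4% of all genes, and below for 0, against 14.0%. Limma called 0 of the 9, and 1 of 22626 probe sets (0.00442%). The called gene, named after its values were seen, was Rgs1, which encodes a regulator of G protein signalling, at 9.94 in both arrays numbered 1 and 6.56 and 6.68 in number 2 (adjusted p = 0.0177). This call was lost with the treatment as a term in the fit, where the lowest adjusted p was 0.478, and with any 1 of the 4 arrays left out, where 0 probe sets were called. At an unadjusted p under 0.05 there were 1688 probe sets (7.46%) and 1 member, Actb. Apart from Actb, the members differed by between −0.355 and 0.355.

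**Figure D3:**
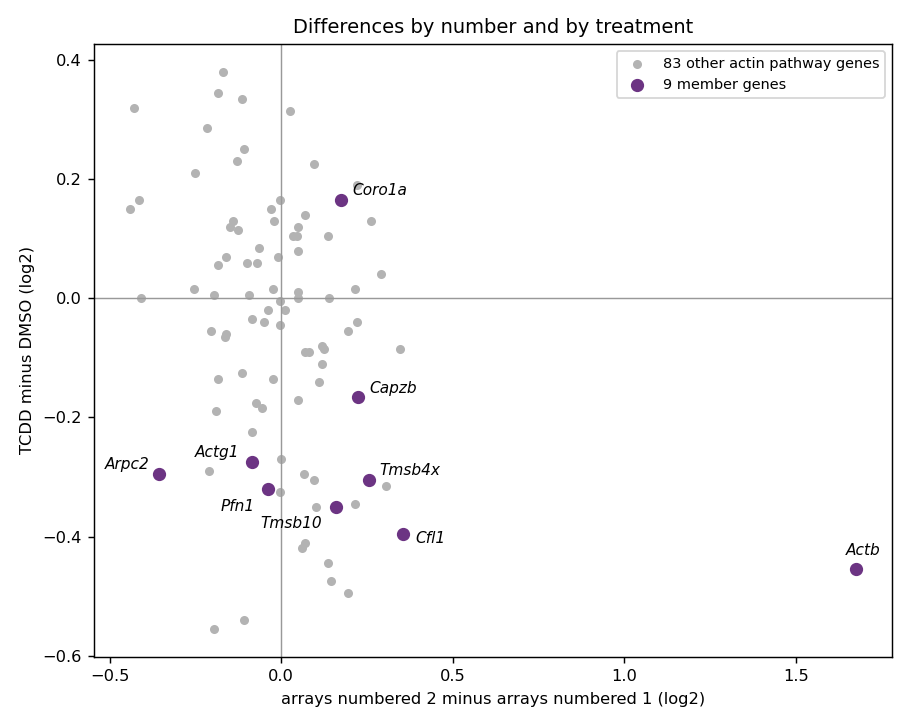
Each point is a gene, with the log2 difference between numbers on the horizontal axis and the log2 difference between treatments on the vertical axis, members in purple and the 83 other actin pathway genes in grey. Actb stands alone at the right at 1.675, and 8 of the 9 members lie below 0 on the vertical axis.

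The wider actin machinery was described by 7 lists with 97 genes, of which 83 were measured. By treatment their median difference was 0, beside −0.305 for the 9 members, whose choice was not independent of these data. Both TCDD arrays were lower for 18 of the 83, against 12.0% of all genes, and higher for 12, against 12.9%, with overlap for the other 53. Between the numbers the median was −0.01, with 8 higher in number 2, against 22.4% of all genes, and 15 lower, against 14.0%. Limma called 0 of the 83 in either comparison, and 7 by treatment and 5 between the numbers had an unadjusted p under 0.05, against 1.94% and 7.46% of all probe sets. All values that follow are log2 differences of the probe set with the highest mean, and none passed the adjustment.

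In the monomer pool and turnover list, with 11 of 16 measured, 2 were lower (12.0% of all genes) and 1 was higher (12.9%) in both TCDD arrays. Twf2, which encodes the monomer-binding twinfilin 2, measured 9.55 and 9.69 after TCDD and 9.70 and 10.17 after DMSO, a difference of −0.315. The cyclase-associated protein gene Cap1 differed by 0.38, the other way. The Cfl1 paralogue Cfl2 differed by 0.015. Between the numbers Twf2 differed by 0.305 and Cfl2 by −0.255.

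Of the remaining Arp2/3 subunit genes 7 were listed and 5 measured, with a median treatment difference of −0.04. In both TCDD arrays 2 were lower (12.0% of all genes) and 0 higher (12.9%). Arpc4 measured 6.77 and 7.05 after TCDD and 7.26 and 7.17 after DMSO, a difference of −0.305, while Arpc5 differed by 0.12. Between the numbers Arpc4 differed by 0.095, and Arpc5l, at 0.22, was higher in both arrays numbered 2, as were 22.4% of all genes.

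Activators of nucleation included 16 measured genes of 19, of which 5 were lower (12.0% of all genes) and 1 was higher (12.9%) in both TCDD arrays. Hcls1, which encodes the cortactin-like protein of lymphocytes, measured 6.86 and 7.06 after TCDD and 7.36 and 7.55 after DMSO, a difference of −0.495 with 95% limits from −0.84 to −0.15. The formin gene Diaph1 differed by −0.35. Was, the gene mutated in Wiskott-Aldrich syndrome, differed by 0.215 between the numbers. The WAVE complex gene Abi1 differed by −0.43 between them.

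Capping, severing and end-binding genes, with 13 of 13 measured, had 4 lower (12.0% of all genes) and 2 higher (12.9%) in both TCDD arrays and a median of 0.005. Evl, which encodes an Ena/VASP protein of leukocytes, measured 8.67 and 8.12 after TCDD and 8.87 and 9.03 after DMSO, a difference of −0.555. The adducin gene Add3 differed by −0.54 with overlapping groups. Flii, of the gelsolin family, differed by −0.44 between the numbers and the gelsolin gene Gsn by −0.195.

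Coronins and tropomyosins had a median treatment difference of 0.08 over 8 measured genes of 9, with 3 higher (12.9% of all genes) and 1 lower (12.0%) in both TCDD arrays. Coro1b at 0.315 and Coro1c at 0.225 were higher in both, and the tropomyosin gene Tpm4 at −0.225 was lower in both. Between the numbers the coronin gene Coro2b differed by 0.29 and the tropomyosin gene Tpm3 by −0.205.

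For crosslinkers and membrane linkers, 19 of 20 were measured, with a median of 0 by treatment. Of these, 4 were lower (12.0% of all genes) and 2 were higher (12.9%) in both TCDD arrays. In both arrays numbered 2, 4 were lower (14.0% of all genes) and 0 higher (22.4%). Lcp1, which encodes the leukocyte filament bundler L-plastin, measured 9.96 and 10.09 after TCDD and 10.43 and 10.44 after DMSO. That difference of −0.41 had an unadjusted p of 0.0139. The spectrin gene Sptbn1 differed by −0.42. Actn1, at 0.23, and Iqgap1, at 0.25, were the 2 higher ones. Flna, the filamin A gene, differed by −0.41 between the numbers and the talin gene Tln1 by −0.19.

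Among non-muscle myosins, 11 of 13 were measured and 3 were higher (12.9% of all genes) and 0 lower (12.0%) in both TCDD arrays. Myo9b, one of these, differed by 0.335. Myo1g, a myosin of the leukocyte membrane, differed by 0.285 with overlapping groups. Myh9, the heavy chain of non-muscle myosin IIA, was lower in both arrays numbered 2, at 11.97 and 11.77 against 12.35 and 12.22. The light chain gene Myl12b differed by 0.215 between the numbers.

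**Figure D4:**
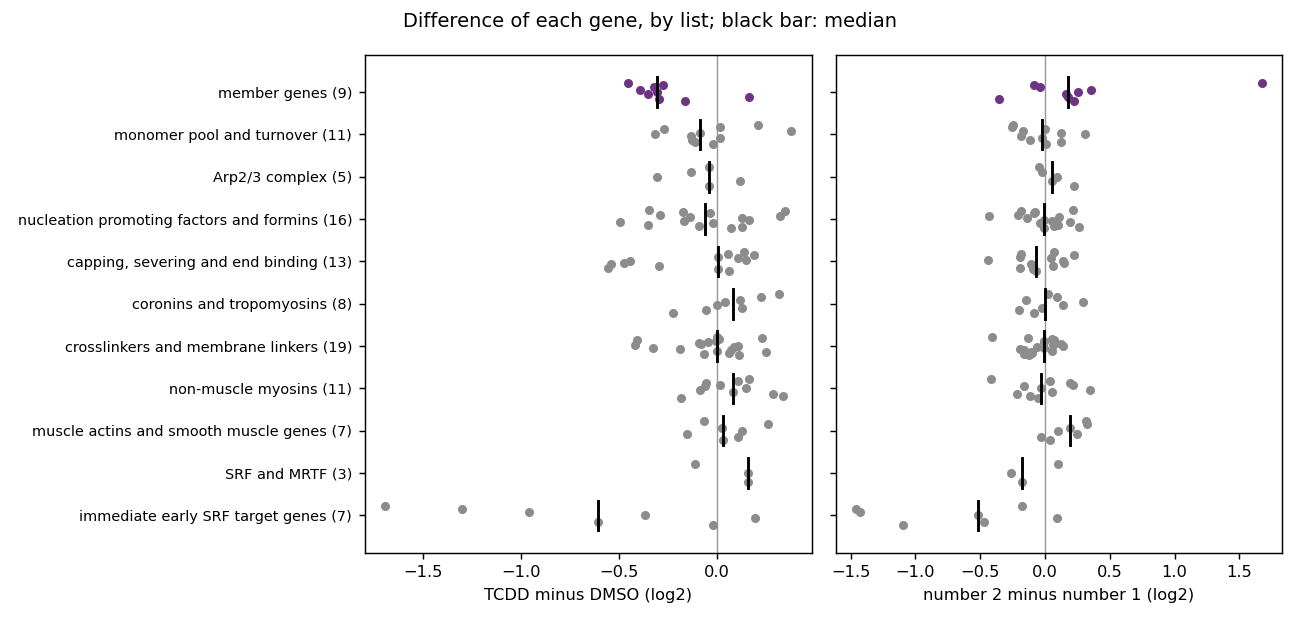
Log2 differences of single genes are plotted by list, by treatment on the left and by number on the right, with the count of measured genes in parentheses and the median as a black bar. The median of the members is −0.305 on the left, and on the right Actb at 1.675 is the point farthest from the rest of its list.

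For SRF and its cofactors, known regulators of actin genes, 3 of 3 were measured. The MRTF genes Mrtfa and Mrtfb both differed by 0.16 by treatment, and by −0.26 and −0.18 between the numbers. Srf itself differed the other way, by −0.11 by treatment and 0.1 between the numbers. The 7 immediate early SRF target genes had a median of −0.52 between the numbers, with 4 of 7 lower (14.0% of all genes) and 0 higher (22.4%) in both arrays numbered 2. Egr1 measured 11.03 and 9.82 in TCDD replicates 1 and 2 and 12.21 and 10.56 in DMSO replicates 1 and 2, and Fosb differed by −1.46 between the numbers. By treatment their median was −0.61, with 2 of 7 lower (12.0% of all genes) and 0 higher (12.9%) in both TCDD arrays. Fos, at −1.695, and Junb, at −0.61, were the 2, while Fosb, at −1.30, overlapped. The others also overlapped, from Egr1 at −0.96 to Egr3 at 0.195, with Ier2 at −0.02. None of the 7 passed limma.

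The defining markers of CD8 T cells were above the median level, with Cd8a at 8.17 to 9.46, Cd8b1 at 8.16 to 8.95 and Cd3e at 9.15 to 9.77 over the 4 arrays. The mean of the 8 measured markers of 10 was 9.12 and 9.55 in TCDD replicates 1 and 2 and 9.57 and 9.65 in DMSO replicates 1 and 2, with 3 lower (12.0% of all genes) and 0 higher (12.9%) in both TCDD arrays. Lower in both were Cd8a, at −0.73, Thy1, at −0.70, and Cd3g, at −0.45, with a list median of −0.1675. The other markers overlapped, with Cd3e at −0.265, Cd8b1 at −0.07, Cd3d at −0.055, Cd5 at 0.02 and Cd2 at 0.035. Between the numbers the list median was 0.3525, with Cd8a at 0.56 and Cd2 at 0.385, while Thy1 was at −0.18 and Cd5 at −0.12. Of 9 B cell markers measured of 10, 5 had means above the median level, while Cd79a, Ms4a1, Pax5 and Blk lay below it. Cd22 had a mean of 7.24, Cd79b of 6.505, Cd74 of 8.265 and H2-Eb1 of 9.44. The MHC class II gene H2-Aa lay between 9.51 and 11.30 over the arrays. The B cell mean was 7.28 and 7.22 after TCDD and 7.32 and 6.78 after DMSO, with a median difference of 0.085 between the numbers. Both arrays numbered 2 lay above both numbered 1 for 3 genes (22.4% of all genes) and below for 3 (14.0%). The 3 below were the MHC class II pathway genes Cd74, at −1.49, H2-Eb1, at −1.235, and H2-Aa, at −1.155. The 3 above were Cd79b, at 0.49, Blk, at 0.28, and Ms4a1, at 0.085. Pax5, at 0.165, Cd79a, at 0.15, and Cd22, at −0.02, overlapped. By treatment the list median was 0.01, with H2-Eb1 at 0.685, H2-Aa at 0.635, Cd74 at 0.57 and Cd79b at 0.3, all with overlap. Cd79a differed by 0.01, Blk by −0.03, Ms4a1 by −0.065 and Pax5 by −0.095, also with overlap. Cd22, at −0.19, was lower in both TCDD arrays, as were 12.0% of all genes.

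Neutrophil markers, 7 of 7, averaged 6.02 and 6.29 after TCDD and 5.95 and 7.11 after DMSO, with 6 of 7 higher in both arrays numbered 2, against 22.4% of all genes. S100a8 stood at 8.67 in DMSO replicate 2 against 5.45 to 5.94 elsewhere, a difference of −1.315 by treatment and 1.805 by number. S100a9, with a mean of 5.76 below the median level, stood at 7.8 there against 4.61 to 5.63 elsewhere. Ngp, Camp and Ltf were also highest in DMSO replicate 2, at 6.89, 6.52 and 6.74, as were 24.4% of all genes. Mpo and Elane were highest in TCDD replicate 2, at 6.23 and 7.05. Ngp differed by 0.455 by number and Camp by −0.25 by treatment. The monocyte and macrophage list, 7 of 7, averaged 6.01 and 6.17 after TCDD and 5.81 and 6.05 after DMSO. Its median was 0.085 by number, with Csf1r at 1.05, Cd68 at −0.09 and Fcgr1 at −0.075. By treatment it was 0.075, with Lyz2 at 0.555 and Adgre1 at −0.045. The Lyz2 difference was 1.04 in number 1 and 0.07 in number 2. Dendritic cell markers, 5 of 6, averaged 7.01 and 6.65 after TCDD and 6.83 and 6.30 after DMSO. By treatment their median was 0.31, with 3 higher (12.9% of all genes) and 0 lower (12.0%) in both TCDD arrays. By number it was −0.27, with 0 higher (22.4% of all genes) and 2 lower (14.0%) in both arrays numbered 2. Ccr7, a chemokine receptor that naive T cells also express, measured 10.02 and 8.52 after TCDD and 9.79 and 7.97 after DMSO, a difference of −1.66 between the numbers and 0.39 by treatment. Flt3 differed by −0.39 and 0.31, Itgax by −0.05 and 0.13, Xcr1 by 0.135 and 0.145 and Batf3 by −0.27 and 0.34. Xcr1 and Batf3 had means below the median level. The CD4 T cell, NK cell, erythroid and platelet lists had treatment medians between −0.10 and 0.0125 and number medians between 0.0075 and 0.135. Their genes above the median level with the largest treatment differences were Cd40lg at 0.18 and Zbtb7b at 0.06, Eomes at −0.26 and Tyrobp at 0.195, Klf1 at 0.145 and Epor at −0.11, and Itgb3 at −0.125 and Gp9 at 0.015. By number these were Cd4 at 0.225 and Zbtb7b at 0.09, Tyrobp at 0.205 and Eomes at −0.18, Epor at 0.11 and Klf1 at −0.065, and Gp9 at 0.135 and Itga2b at 0.115. The part of these cells in the differences of the actin genes was not tested.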

How the data were processed

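Affymetrix expression arrays of sorted splenic CD8 T cells were analysed, 2 after TCDD and 2 after DMSO. The authors, per the submitters' processing notes, used RMA (its version: not given in the sources used here), and the deposited values are log2 values, as read from their range of 3.09 to 14.62. RMA values have no true zero, and differences are compressed near the low end. Array medians lay between 5.97 and 6.03. Precision is limited by having 4 arrays.

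Of 22690 probe sets, 64 Affymetrix controls were left out of the tests. Names came from the platform annotation with Entrez identifiers looked up in RefSeq for GRCm38.p6: 20380 probe sets had 1 symbol, 691 several and 1555 none here. Differences are TCDD minus DMSO and number 2 minus number 1. Each was fitted to all 22626 probe sets by lmFit and eBayes of limma 3.58.1 (R 4.3.3), two-sided, unfiltered and without covariates. P-values were adjusted by Benjamini-Hochberg over the whole array and called at 0.05. Limits are 95% limits of that fit. On simulated data the fit's effect sizes were tested and its calls counted, while its limits were not tested. The simulated arrays had independent noise, without a shared effect of the number.

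The members and all lists were chosen with earlier results of these data known, so lists are described by counts and medians, with no test. All members were named, and from each list up to 2 genes with the largest difference in each comparison among those above the median level. Further genes of some lists are given beside them to show the rest of the list. The comparison with genes at or above the members' lowest level was added after the values were seen. Alternatives were array centring, quantile normalisation, 2 filters on low values, array weights, a robust fit with a variance trend, leaving out probe sets marked for cross hybridisation, averaging all probe sets of each gene, the other factor as a term, and each array left out. A further list of actin regulators is not reported here.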

Additional observations from a re-analysis of the deposited data

How the results depend on the processing

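Under each of the 12 alternatives with a test limma called 0 probe sets for TCDD against DMSO, with 116 to 1079 at an unadjusted p under 0.05; averaging a gene's probe sets gave values and no test. Between the numbers the 1 call became 11 with a variance trend and robust fitting, 0 with the treatment as a term and 0 with any of the 4 arrays left out. The lowest adjusted p of a member under any of them was 0.135, for Actb by number. Over the 18 member differences, 219 of 232 values kept their direction. The 13 that turned were as follows. Without probe sets marked for cross hybridisation Tmsb10 was at 0.105 by treatment and at −0.085 by number, and for the mean of its probe sets at −0.006 by number. With an array left out, treatment differences ran from −1.30 to 0.39 for Actb, −0.085 to 0.415 for Coro1a and −0.655 to 0.065 for Arpc2. Number differences ran from −0.455 to 0.375 for Pfn1, −0.265 to 0.095 for Actg1, −0.07 to 0.42 for Coro1a and −0.175 to 0.495 for Tmsb10, while Actb stayed between 1.44 and 1.91, and was 0.6075 for the mean of its probe sets. The median of the members ran from −0.51 to −0.10 by treatment and from 0.025 to 0.375 by number. The count of members below 0 by treatment, an alternative added after seeing the data, was 7 or 8 of 9, and 6 of 8 without marked probe sets, where Actg1 has no value. With the title number as a replicate block 0 probe sets were called and the members' median was again −0.305; for Actb by treatment the unadjusted p was then 0.0166 in place of 0.584 and the adjusted p 0.994, within 0.931 to 1 over its alternatives. Same-numbered arrays deviated together (r = 0.2338 over probe sets), which with 2 pairs is no evidence of pairing. An array left out leaves 1 in its group, which is assumed to vary like the other group. Values near the low end of RMA limit what the probe sets below the median level can show.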

Other observations

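Actb is widely used as a reference gene for expression, so the other reference genes were read beside it. Of 10 listed, 7 were measured, with differences between −0.26 and 0.485 by number and between −0.745 and 0.425 by treatment. B2m, which encodes the light chain of MHC class I, measured 11.19 and 11.48 in TCDD replicates 1 and 2 and 11.74 and 12.42 in DMSO replicates 1 and 2. The glycolytic gene Pgk1 measured 10.92 and 11.21 after TCDD and 10.79 and 10.49 after DMSO. The succinate dehydrogenase gene Sdha measured 9.38 and 8.82 after TCDD and 9.40 and 9.44 after DMSO. By treatment B2m differed by −0.745 and Pgk1 by 0.425, and by number B2m differed by 0.485 and Sdha by −0.26. Both TCDD arrays were lower for 3 of the 7 (Hprt, B2m and Sdha), against 12.0% of all genes, and higher for 1 (Pgk1), against 12.9%. Both arrays numbered 2 were higher for 1, against 22.4% of all genes, and lower for 0, against 14.0%. Limma called 0 of the 7 in either comparison. At an unadjusted p under 0.05 there was 1 by treatment (1.94% of all probe sets) and 0 by number (7.46%).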
